A study of Danio rerio with 12 samples.

Results

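The 92 zebrafish genes described here carry a symbol that begins with si: or zgc: and were close to absent from wild-type embryos at 1 hour post fertilization (hpf) and present at 6 hpf. A gene was a member if it had at most 3 counts in each of the 3 wild-type libraries at 1 hpf and a mean of at least 5 CPM (reads of the gene per 1000000 counted reads of the library) in the 3 wild-type libraries at 6 hpf. Of the 25432 genes counted, 3798 had such a symbol, 2192 of those met the limit at 1 hpf, and 92 met both. The members divide into 77 si: genes and 15 zgc: genes. The members were thus chosen by their wild-type values at 1 and 6 hpf, and the rise in wild type is described below without a test. The MZznf598 libraries took no part in the choice.

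Whole embryos of the wild-type AB strain and of MZznf598 were collected in pools at 1 and 6 hpf, which gave 4 groups of 3 libraries. MZznf598 embryos came from homozygous parents of 1 mutant strain, whose znf598 gene carries a small deletion that shifts the reading frame in the first exon. They lack both the maternal supply and the zygotic product of Znf598, a ubiquitin ligase that recognizes collided ribosomes. The labels do not say whether replicates of a group were separate clutches, so p-values measure the spread between these libraries. Wild-type and MZznf598 embryos had different parents, so an effect of the mutation and one of the line cannot be told apart.

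At 1 hpf the zebrafish embryo lives on RNA that the mother placed in the egg, and its own genome is almost silent. During the maternal-to-zygotic transition (MZT) maternal RNAs are cleared and the zygotic genome is switched on, so that by the onset of gastrulation many transcripts are made by the embryo alone. Symbols that begin with si: were assigned to gene models found on genomic clones sequenced at the Sanger Institute, and those that begin with zgc: come from cDNA clones of the Zebrafish Gene Collection. Both are placeholders for genes that have not been given a name from a function or an ortholog, and they appear here beside the identifiers of the Ensembl annotation.

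The annotation of the members was correspondingly thin. By name, 58 of the 92 were found in a RefSeq gene table (assembly GRCz12tu), where 54 were protein-coding, 3 were long noncoding RNAs and 1 was another RNA. The other 34 had no match. Under a newer name, si:rp71-1n18.1 is listed there as krt96, a keratin, which is a family of filament proteins of epithelial cells. The gene zgc:109913 has the synonym rgs9bp, which in mammals anchors a regulator of G protein signaling in photoreceptors. The study's gene annotation, seen here only for genes that it listed as raised in MZznf598 in these libraries, gives C2H2-type zinc fingers (C2H2-ZF), a DNA-binding fold, to 3 members, si:dkeyp-53e4.1, si:dkey-22h13.2 and si:dkey-149m13.4. It gives no such domain to the protein-coding si:dkey-238d18.15, si:dkey-238o14.7 and si:dkey-52l1.1.

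Library totals ran from 7144704 counts, in the third wild-type library at 6 hpf, to 12162660. The znf598 mRNA was measured at 95.0, 85.7 and 51.8 CPM in the 3 wild-type libraries at 6 hpf and at 7.7, 8.68 and 6.67 CPM in the 3 MZznf598 libraries, so the labels and the targeted gene pointed the same way in all 6. Of 12 genes listed as markers of the late blastula and gastrula, 11 were found. Their adjusted p-values between genotypes at 6 hpf, from edgeR, were 0.0435 or higher, and those of 6 maternal genes were 0.149 or higher. The lowest of these, 0.0435, was that of ved. All MZznf598 libraries lay above all wild-type libraries for chrd, noto and mixl1, and below for ved and krt4. Of all genes tested, 12.8% lay above and 15.2% below in this way. The summed CPM of the stage markers ran from 3987 to 4524 in wild type and from 4459 to 4491 in MZznf598 at 6 hpf. These sums add markers that moved in opposite directions, and a difference in stage was not tested.

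The levels of the members in wild type at 6 hpf covered a wide range, from 5.01 to 343 CPM with a median of 11.5 CPM. CPM is not divided by gene length, so this range ranks read counts and not molecules. Of the 92 members, 39 lay between 5 and 10 CPM, 19 between 10 and 20, 25 between 20 and 50 and 9 above 50. Together they took 2256, 2307 and 2411 CPM of the 3 wild-type libraries at 6 hpf. The first 10 by count accounted for 47.9% of that sum. At 1 hpf, 34 members had 0 counts in all 3 wild-type libraries. A count of 0 allows up to 3 counts, which is 0.247 CPM in the library with the highest total and 0.42 CPM in that with the lowest. This limit covers counting error only.

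The member with the most reads was si:ch211-152c2.3 (ENSDARG00000045898), which RefSeq lists as a long noncoding RNA. It had 319, 362 and 348 CPM in the wild-type libraries at 6 hpf and 346, 374 and 376 CPM in those of MZznf598. At 1 hpf it had 0, 0 and 2 counts in wild type and 2, 1 and 0 counts in MZznf598. The groups overlapped at 6 hpf and the adjusted p was 0.665. The protein-coding si:ch211-125o16.4 (ENSDARG00000056836) came next, with 279, 255 and 202 CPM in wild type and 246, 221 and 241 CPM in MZznf598. Its wild-type libraries spanned those of the mutant, and the difference was within the spread (adjusted p = 0.938). These 2 genes made up 25.3% of the summed wild-type CPM of all 92. Here and below, adjusted p-values of single genes are from edgeR's quasi-likelihood test with Benjamini-Hochberg adjustment over 15829 genes, and genes below 0.01 are described as called.

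**Figure D1:**
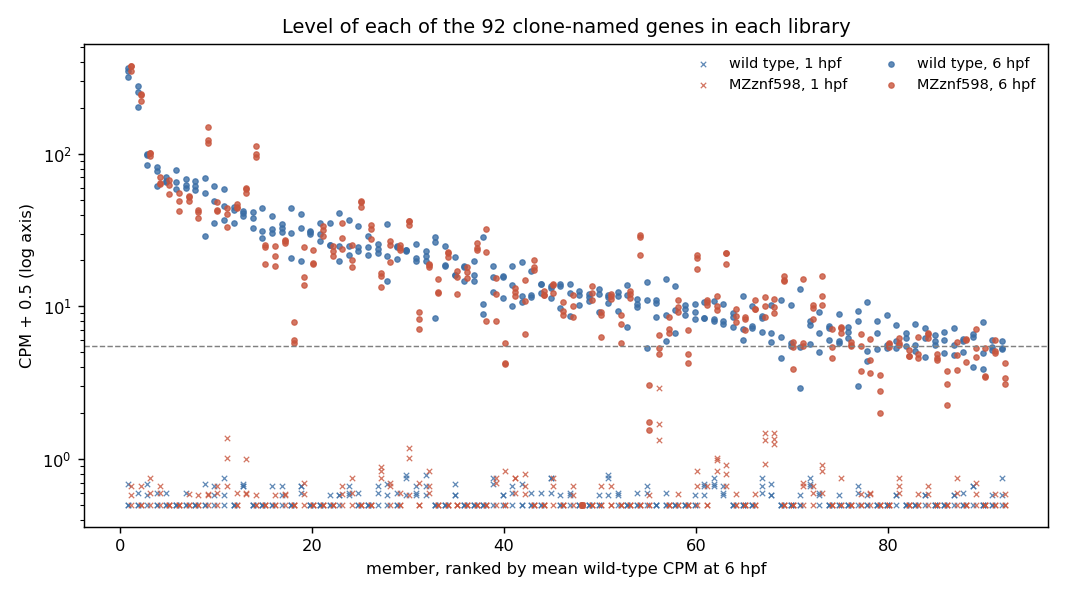
Level of each of the 92 members in each of the 12 libraries, as CPM + 0.5 on a log axis, with members ranked by their mean in wild type at 6 hpf; dots are 6 hpf, crosses 1 hpf, blue wild type and red MZznf598, and the dashed line is the 5 CPM limit. The 6 hpf dots lie apart from the 1 hpf crosses for nearly all members, and the MZznf598 member at 0 CPM at 6 hpf is si:dkey-27n6.4.

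Among the other members with the highest counts, si:ch211-170d8.2, zgc:100868 and zgc:193505 had 93.7 ± 8.36, 73.2 ± 10.7 and 67.1 ± 2.41 CPM in wild type at 6 hpf and 99.5 ± 2.45, 65.7 ± 3.93 and 60.9 ± 6.58 CPM in MZznf598 (SD, n = 3). All 3 are protein-coding in RefSeq, and in none did the genotypes separate. For the si: gene ENSDARG00000103322, also protein-coding, the 3 wild-type libraries at 65.2, 58.6 and 77.3 CPM lay above the 3 MZznf598 libraries at 41.9, 48.6 and 54.4 CPM, with an adjusted p of 0.111. The gene si:dkey-166k12.1 had 34.9, 48.9 and 61.3 CPM in wild type and 42.2, 41.7 and 47.5 CPM in MZznf598, so the mutant libraries fell inside the wild-type range.

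To ask whether the same genes were switched on without Znf598, MZznf598 at 6 hpf was compared with MZznf598 at 1 hpf. Of the 92 members, 91 were called higher at 6 hpf, where 36.3% of all genes tested were called higher. In 91 members each MZznf598 library at 6 hpf lay above each at 1 hpf, against 31.7% of all genes tested. Summed over the members, MZznf598 had 9.58, 8.23 and 9.91 CPM at 1 hpf and 2323, 2364 and 2364 CPM at 6 hpf. The sums at 6 hpf were close to those of wild type given above, while single members moved in both directions. In bulk samples, more cells that express a gene and more RNA per cell cannot be told apart.

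Of the members called higher, 36 had 0 counts in the 3 MZznf598 libraries at 1 hpf, so the rise has a lower bound only. Against 3 counts per library, these rose at least 8.61-fold to at least 229.6-fold, with a median bound of 44.3-fold. The highest bound belonged to zgc:193505 and the lowest to si:dkey-244a7.1, which had 1.51, 2.29 and 3.04 CPM at 6 hpf in MZznf598. The smallest rise with counts at both stages was that of si:dkeyp-67a8.4, described below, at 2.32 on the log2 scale (SE 0.36, edgeR adjusted p = 8.94e-05).

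The member not called in this comparison was si:dkey-27n6.4 (ENSDARG00000101757), which had no match in RefSeq. In wild type it had 0 counts at 1 hpf and 86, 103 and 86 counts at 6 hpf, or 9.66, 11.4 and 12.04 CPM. In MZznf598 it had 0 counts in all 6 libraries. The genotypes were therefore apart in every library at 6 hpf, and MZznf598 was at least 29.4-fold lower (adjusted p = 0.000248). This gene met the rule and the filter for testing through the wild-type libraries at 6 hpf alone. Its direction and adjusted p are therefore not independent of that choice. Other gene models from the same clone, si:dkey-27n6.1 and si:dkey-27n6.10, had means of 0 and 0.0841 CPM in wild type at 6 hpf and 0 and 0.246 CPM in MZznf598.

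At 1 hpf, 79 members also had at most 3 counts in each MZznf598 library, and 37 had 0 in all 3. In 13 members at least 1 MZznf598 library exceeded 3 counts. The rule capped the wild-type libraries at 1 hpf, so a MZznf598 library over 3 counts is above each of them by the rule. The other MZznf598 libraries need not be, as for zgc:173716 with 1, 6 and 1 counts against 2, 2 and 2 in wild type. No test was made. In 4 members all 3 MZznf598 libraries exceeded the cap. The protein-coding si:dkeyp-67a8.4 (ENSDARG00000092823) had 14, 10 and 25 counts in MZznf598 at 1 hpf and 0, 0 and 0 in wild type. The other 3 had no RefSeq match. For si:dkey-264f17.4 the counts were 10, 9 and 10 in MZznf598 and 1, 1 and 2 in wild type, for si:dkey-238g7.2 they were 5, 10 and 10 and 3, 2 and 1, and for si:dkey-7j22.4 they were 6, 4 and 5 and 2, 3 and 2.

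In si:dkeyp-67a8.4 the order of the genotypes was the opposite at 6 hpf. Wild type had 10.4, 8.07 and 10.1 CPM and MZznf598 had 4.4, 6.03 and 4.8 CPM, so all 3 mutant libraries were below all 3 of wild type, with a log2 fold change of -0.88 (SE 0.32, adjusted p = 0.12) that was not called. The rule had capped the wild-type counts at 1 hpf and set a floor under the wild-type level at 6 hpf, which leans towards this order, so the difference between the stages was not tested.

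To ask which of the members differ in abundance between MZznf598 and wild type after the MZT, the genotypes were compared at 6 hpf. In MZznf598, 4 of the 92 members were called higher and 4 lower, against 1.76% and 1.75% of all genes tested. Each of the 2 counts is 4.35% of the members. Among the 4 lower, si:dkey-27n6.4 and si:dkey-121n8.8 reached the 5 CPM limit in wild type and not in MZznf598. The count of lower calls is therefore not independent of the rule. Most members differed little, since 68 lay within 1.5-fold of wild type and 13 beyond 2-fold, 6 of these up and 7 down. The median log2 fold change of the members was -0.12, beside -0.01 for all genes tested. At an adjusted p below 0.05 the counts were 7 up and 7 down, against 4.27% and 4.09% of all genes. At an unadjusted p below 0.05, 11 members were higher and 17 lower, against 11.3% and 10.9% of all genes. DESeq2 called 8 higher and 7 lower at an adjusted p below 0.01, against 3.8% and 3.22% of all genes. The replicate numbers paired the stages within a genotype, and limma with that pairing as a random replicate block called 7 higher and 6 lower, the same counts as limma without a block. The share of all genes called by limma is not given here, so these counts are not read as a result about the members.

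The limit of 5 CPM was placed on wild-type libraries at 6 hpf, which leans the choice towards genes that were high there. With the same limit on the mean of all 6 libraries at 6 hpf, 93 genes were chosen, 85 of them members, with a median of 0.00647 and with 9 called up and 4 down. The genes that it added were below 5 CPM in wild type and passed through their higher MZznf598 level, which favours calls up. The members that it dropped were below 5 CPM in MZznf598. Both changes raise the median and follow from the rule. The median thus moved to near 0 and the count of genes called up moved with the rule. This alternative for the median was added after seeing the data.

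**Figure D2:**
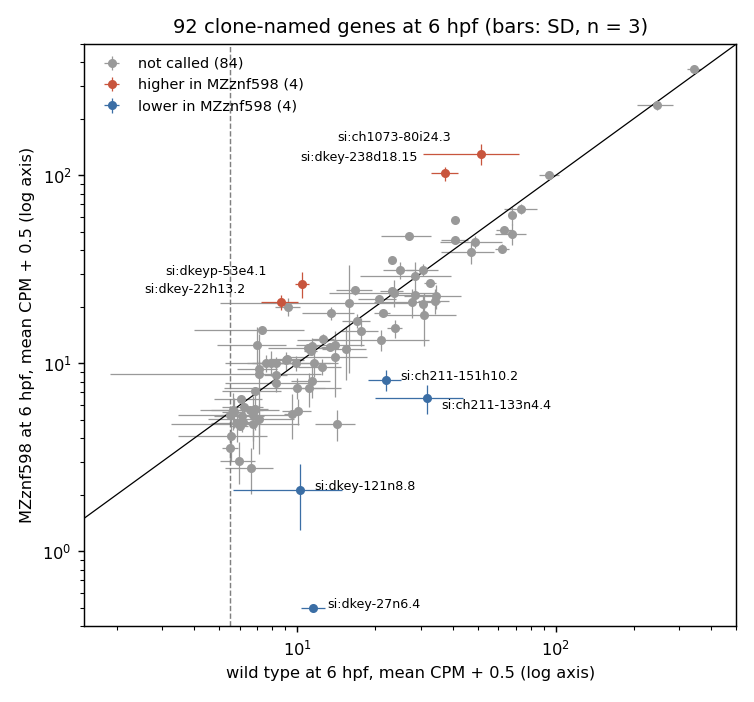
Mean CPM + 0.5 of the 92 members at 6 hpf in wild type (x) and MZznf598 (y), both on log axes, with bars for the SD (n = 3), the line of equality and the 5 CPM limit (dashed). Red points are the 4 members called higher in MZznf598 and blue points the 4 called lower; si:dkey-27n6.4 sits at 0 CPM in MZznf598.

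The 4 members that rose in MZznf598 had no RefSeq match, and all 3 mutant libraries lay above all 3 of wild type in each. The gene si:dkey-238d18.15 (ENSDARG00000101197) had 32.2, 41.1 and 37.4 CPM in wild type and 112, 98.8 and 95.2 CPM in MZznf598, a log2 fold change of 1.49 (SE 0.14, adjusted p = 0.000101). This was the lowest adjusted p among the 92 members. It was called in each of the 12 fits that left out 1 library.

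The C2H2-ZF gene si:dkey-22h13.2 (ENSDARG00000112725) had 7.19, 7.52 and 9.8 CPM in wild type at 6 hpf and 21.9, 21.9 and 18.5 CPM in MZznf598, a log2 fold change of 1.37 (SE 0.20, adjusted p = 0.000876). It too was called in all 12 fits with 1 library left out. Among the called members, the other annotated C2H2-ZF gene was si:dkeyp-53e4.1 (ENSDARG00000094558). It had 10.7, 9.84 and 9.38 CPM in wild type and 28.7, 21.2 and 27.9 CPM in MZznf598, a log2 fold change of 1.40 (SE 0.21, adjusted p = 0.00228). It was no longer called in 3 of those 12 fits, with an adjusted p of 0.0201 without the third MZznf598 library at 6 hpf. From the clones of these genes, si:dkey-22h13.3 and si:dkeyp-53e4.4 had means of 2.85 and 1.39 CPM in wild type at 6 hpf. In MZznf598 they were lower, at 1.16 and 0.176 CPM, and not called (adjusted p = 0.136 and 0.0436). The remaining models, si:dkey-22h13.1 and si:dkeyp-53e4.2, had 0.352 and 0.0368 CPM in wild type and 0.5 and 0 CPM in MZznf598. The annotation was read here only for genes that the study listed as raised in these libraries, so it gives no count of C2H2-ZF genes among members that did not rise.

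The widest spread among the 4 was in si:ch1073-80i24.3 (ENSDARG00000097776). It had 28.6, 54.8 and 69.4 CPM in wild type and 149, 123 and 118 CPM in MZznf598, a log2 fold change of 1.37 (SE 0.25, adjusted p = 0.00497). The first wild-type library was the lowest and the first MZznf598 library the highest. The call was lost in 4 of the 12 fits with 1 library left out, with an adjusted p of 0.0339 without that MZznf598 library, and in the fit to the 6 libraries at 6 hpf alone, where it was 0.0221.

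Of the 4 members that fell in MZznf598, si:dkey-27n6.4 was the one with 0 counts, as given above, and the other 3 are protein-coding in RefSeq. The gene si:ch211-133n4.4 (ENSDARG00000071224) had 43.9, 30.0 and 20.2 CPM in wild type and 5.5, 7.35 and 5.27 CPM in MZznf598, a log2 fold change of -2.35 (SE 0.30, adjusted p = 0.00169). The wild-type libraries varied more than 2-fold among themselves, and the lowest of them was still above the highest of MZznf598. The call was lost in 2 of the 12 fits, with an adjusted p of 0.0159 without the third MZznf598 library at 6 hpf. Another 6 gene models from its clone were at 0 to 1.63 CPM in wild type and 0.078 to 0.795 CPM in MZznf598 at 6 hpf.

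The gene si:ch211-151h10.2 (ENSDARG00000068250) had 19.2, 20.1 and 25.1 CPM in wild type and 6.6, 7.71 and 8.66 CPM in MZznf598, a log2 fold change of -1.46 (SE 0.25, adjusted p = 0.00295). The groups did not overlap, but the call was lost in 4 of the 12 fits with 1 library left out, with an adjusted p of 0.0245 without the first MZznf598 library at 6 hpf. The last of the 4, si:dkey-121n8.8 (ENSDARG00000092025), had 4.83, 10.5 and 14.0 CPM in wild type and 1.24, 2.53 and 1.05 CPM in MZznf598, a log2 fold change of -2.57 (SE 0.48, adjusted p = 0.00554). It was no longer called in 6 of the 12, with an adjusted p of 0.0393 without the third MZznf598 library at 6 hpf, and it was 0.0154 in the fit to the 6 libraries at 6 hpf alone. In limma with the block within genotype the adjusted p was 0.0138, also not called. The mutant libraries held 9, 21 and 9 counts of this gene. It reached the 5 CPM limit in wild type and not in MZznf598, so its direction and adjusted p are not independent of the rule.

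**Figure D3:**
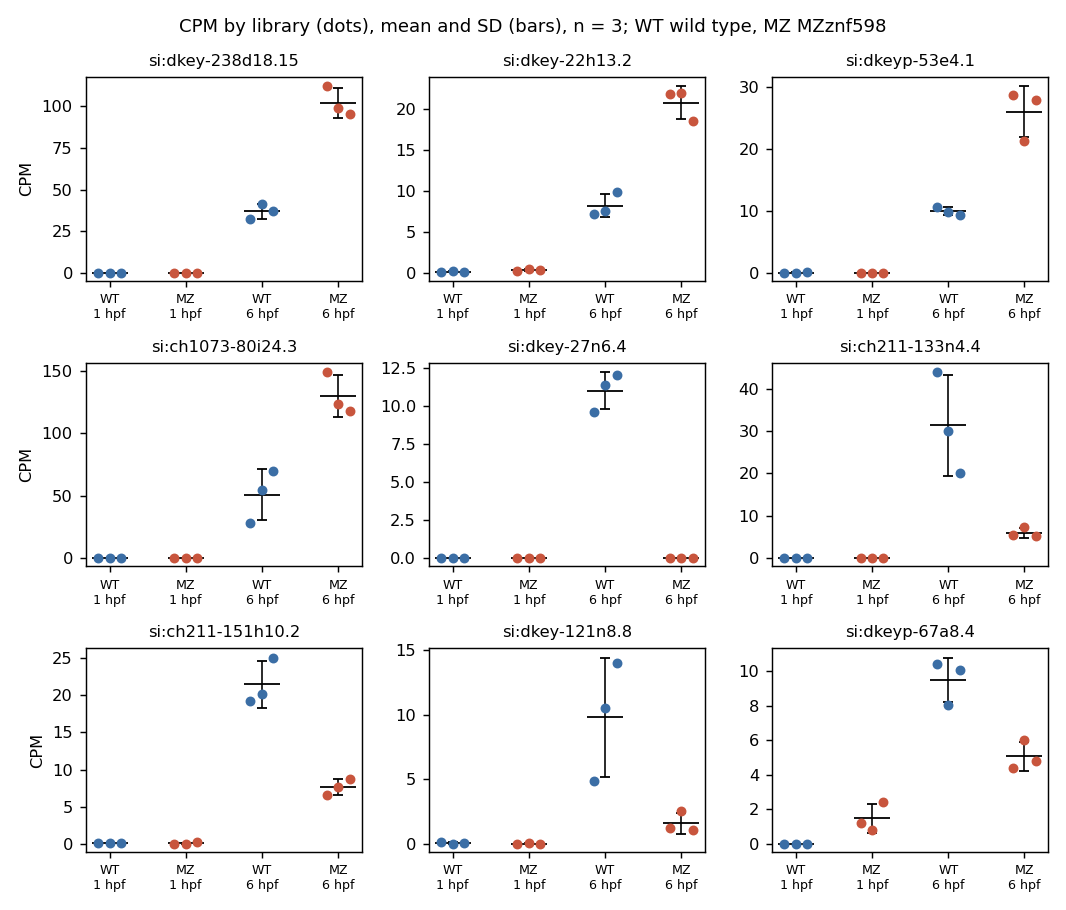
CPM in each library (dots) with the mean and SD (bars, n = 3) for the 4 members called higher and the 4 called lower in MZznf598 at 6 hpf, and for si:dkeyp-67a8.4. WT is wild type and MZ is MZznf598; in the first 8 panels the 6 hpf groups do not overlap, and in the last MZznf598 is higher at 1 hpf and lower at 6 hpf.

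The number of calls depended on which library was left out. With 1 library left out, the number of members called higher ranged from 2 to 6 and the number called lower from 1 to 6. The lowest counts came without the first or the third MZznf598 library at 6 hpf, each with 2 higher and 1 lower, and those 3 were among the 8 called with all libraries. Without the second wild-type library at 6 hpf, 2 were called higher and 2 lower, and without the second MZznf598 library at 6 hpf 3 and 2. The highest counts, 6 and 6, came without the third wild-type library at 1 hpf. The shares of all genes called in these fits are not given here, so the ranges are not read as particular to the members.

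**Figure D4:**
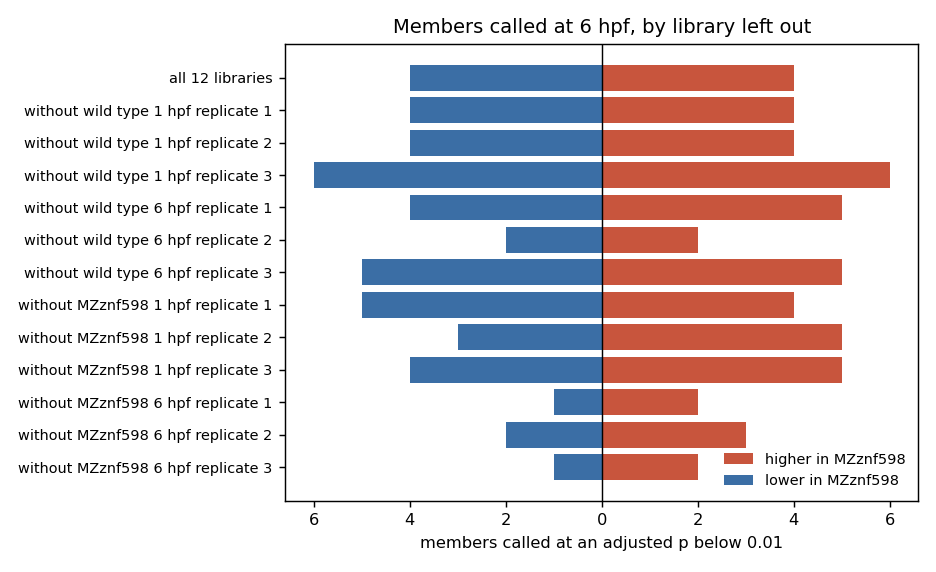
Number of the 92 members called between genotypes at 6 hpf (edgeR, adjusted p below 0.01) with all 12 libraries and with each library left out in turn. Red bars count members higher in MZznf598 and blue bars those lower. Both are 4 with all libraries. With 1 library left out, the higher run from 2 to 6 and the lower from 1 to 6. The shares of all genes called in these fits are not given.

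Several members separated the genotypes without passing the threshold. In 13 members (14.1%) all MZznf598 libraries at 6 hpf were above all wild-type libraries, against 12.8% of all genes tested, and in 25 (27.2%) all were below, against 15.2%. Among the 337 genes with other symbols that met the same limits, the shares were 13.1% and 22.3%. The floor that the rule set under wild type at 6 hpf leans towards MZznf598 being lower. The median log2 fold change was -0.04 in the 39 members at 5 to 10 CPM in wild type. It was -0.13 in the 53 members at 10 CPM or more, farther from the floor. The part of the rule in the lower members was not tested. The higher members included si:dkey-238o14.7, with 33.3, 23.98 and 22.4 CPM in wild type and 48.4, 44.4 and 47.9 CPM in MZznf598 (adjusted p = 0.0143). They also included si:dkey-52l1.1, with 7.75, 8.62 and 9.8 CPM and 21.3, 17.0 and 20.3 CPM (adjusted p = 0.0143). Both were called by DESeq2, as were zgc:173716 and the C2H2-ZF gene si:dkey-149m13.4, which brought its count of members called higher to 8. These 4 names were chosen for that change of call, after their values were seen. The study, which used edgeR at an FDR below 0.01, listed si:dkey-238o14.7, si:dkey-52l1.1 and si:dkey-149m13.4 as raised in MZznf598 at 6 hpf. In the fit used here si:dkey-149m13.4 had an adjusted p of 0.0618, so for these genes the calls differ from those of the study.

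The gene zgc:173716 had 40.3, 41.8 and 38.6 CPM in wild type and 54.6, 58.0 and 58.9 CPM in MZznf598 at 6 hpf (adjusted p = 0.041). Among the lower ones, si:ch211-217k17.9 was 1 of the 10 members with the highest counts. It had 65.3, 57.7 and 61.0 CPM in wild type and 41.1, 37.6 and 42.1 CPM in MZznf598, a log2 fold change of -0.58 (SE 0.13, adjusted p = 0.0184) that was not called. It was called by DESeq2, with an adjusted p of 0.000134, and without the third wild-type library at 1 hpf, with 0.00822.

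Some members carry the name of the same clone. In 4 clones there were 2 members each, 8 genes in all. Beside si:ch211-217k17.9, its clone holds si:ch211-217k17.8, with 29.5, 30.6 and 30.2 CPM in wild type and 18.7, 18.4 and 23.1 CPM in MZznf598, also lower in all 3 mutant libraries (log2 fold change -0.56, SE 0.16, adjusted p = 0.0619). From another clone, si:ch211-232i5.1 had 58.8, 62.0 and 67.5 CPM in wild type and 48.5, 51.3 and 52.7 CPM in MZznf598, and si:ch211-232i5.3 had 30.3, 32.2 and 34.0 and 26.4, 25.4 and 26.8 CPM. Both were below wild type in every library, by -0.28 and -0.27 on the log2 scale, and neither was called.

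The other pairs moved less alike. The members si:ch211-202h22.7 and si:ch211-202h22.8 are also neighbours in the RefSeq gene order. Of these, si:ch211-202h22.8 had 23.4, 25.0 and 21.8 CPM in wild type and 12.9, 15.4 and 16.2 CPM in MZznf598, while si:ch211-202h22.7 had 5.5, 6.63 and 11.2 and 6.46, 7.95 and 7.73 CPM and overlapped. In the last pair, si:dkey-149m13.4 was higher in every MZznf598 library, with 22.8, 22.9 and 22.4 CPM in wild type and 35.6, 33.6 and 35.7 CPM, and si:dkey-149m13.5 had 7.86, 7.85 and 10.2 and 10.4, 10.1 and 9.72 CPM. Strand use in the counting was not stated, so reads of overlapping gene models may not have been told apart. Near-identical copies lose reads, since only reads with 1 location were kept. Genes of 1 clone are therefore uncertain as separate measurements. In all, 44 members shared a clone with 86 other gene models that were not members, and 33 of those had at most 3 counts in all 12 libraries.

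The spread between replicates was larger in wild type than in MZznf598 for these genes. The median coefficient of variation over the members at 6 hpf was 17.5% in wild type and 11.3% in MZznf598, given as a description since the members share libraries. The value over all genes is not given here, so the difference is not read as particular to the members. The third wild-type library had the highest CPM of its group in 53 of the 92 members (57.6%), against 38.7% of all genes tested. The share was 59.9% among the 337 genes with other symbols that met the same limits, so it is not particular to clone-named genes. On log2(CPM + 0.5), the median member was 0.17 above the mean of the other 2 libraries there, and -0.13 and -0.10 relative to it in the first and the second library. Within the MZznf598 group the 3 medians ran from -0.03 to 0.03. For the 337 genes with other symbols, the median in the third wild-type library was 0.21.

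**Figure D5:**
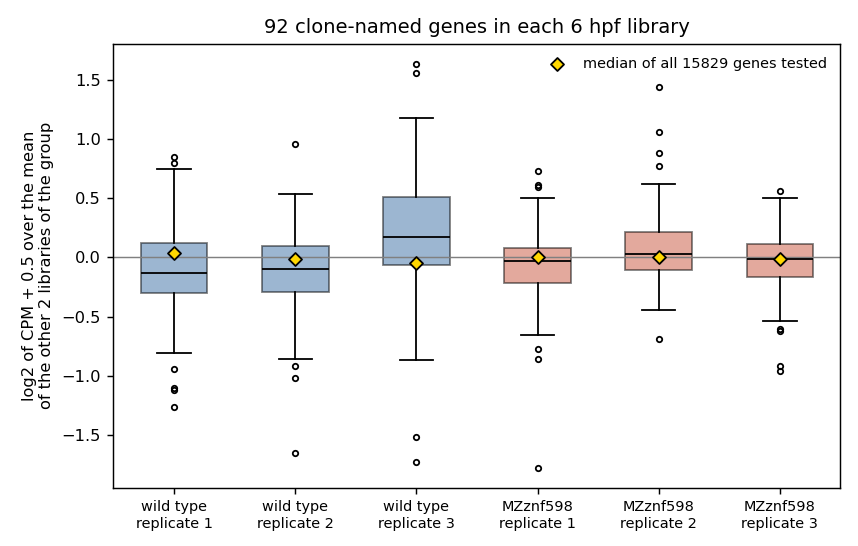
For each 6 hpf library, the log2 of CPM + 0.5 over the mean of the other 2 libraries of its group, as a box over the 92 members (line median, box quartiles, whiskers to 1.5 box lengths, circles beyond) and as a diamond for the median of all genes tested. The third wild-type library has a member median of 0.17 and an all-gene median of -0.04. Genes with other symbols that met the same limits, not drawn, have a median of 0.21 there. The MZznf598 libraries lie near 0.

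Most stage markers had their lowest value in that library, which was the lowest of its group for 45.1% of all genes tested. The summed CPM of the 11 markers found was 4493, 4524 and 3987 in the 3 wild-type libraries, 7 of the 11 being lowest in the third, and 5 of 6 maternal genes were lowest there too. The homeobox gene noto, which specifies the notochord, had 98.9, 102 and 70.0 CPM, and the maternal germ plasm organizer buc had 73.9, 56.7 and 30.1 CPM. The remaining stage markers, chrd, krt4, tbxta and ved, and the remaining maternal gene, ddx4, were instead highest in the third library. For tbxta the values were 514, 593 and 627 CPM, and for ddx4 they were 227, 233 and 339 CPM. The part of stage or of depth in these values was not tested. Without that library, in a setting added after seeing the data, the rule chose 86 genes, 84 of them members, with a median log2 fold change of -0.04 and 4 called up and 5 down. For the 92 members in the fit without it, the median was -0.01.

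Single members carried wider spreads than the group. The gene si:ch73-54f23.2 had 4.94, 2.43 and 12.5 CPM in wild type at 6 hpf and 5.22, 14.7 and 5.03 CPM in MZznf598, and si:ch211-11n16.3 had 8.42, 9.84 and 27.9 and 7.56, 31.7 and 22.4 CPM. In both genes some libraries stood well above the others of their genotype, and the genotypes overlapped. At the other end, si:dkey-149m13.4 and si:ch211-217k17.8 had the smallest relative spread in wild type, with coefficients of variation of 1.14% and 1.83%. These 4 were named for their spread, after it was seen.

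The limit of 5 CPM cut through a continuous range of levels. Just inside it, si:dkeyp-23e4.3, si:dkey-74k8.4 and si:ch73-44m9.2 had 5.01 ± 0.393, 5.01 ± 0.441 and 5.06 ± 2.1 CPM in wild type at 6 hpf (SD, n = 3). Just outside it, si:dkey-14d8.6, si:ch211-172l8.4 and si:dkey-237g15.6 had 4.95 ± 0.857, 4.93 ± 0.638 and 4.9 ± 0.261 CPM. These 6 genes did not differ by more than their spread, so membership at the limit is a matter of the rule.

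The same limits applied to the MZznf598 libraries chose 87 clone-named genes, of which 64 were members. That is 69.6% of the members and 73.6% of the MZznf598 choice. Of the 28 members left out, 16 fell below 5 CPM in MZznf598 at 6 hpf and 13 exceeded 3 counts at 1 hpf, 1 gene counting under both. Of the 23 genes chosen in MZznf598 alone, 14 had over 3 counts in a wild-type library at 1 hpf and 9 were below 5 CPM in wild type at 6 hpf.

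Of those 23 genes, si:ch211-149a19.3 (ENSDARG00000079456) was the one called between genotypes at 6 hpf. It had 1.8, 4.2 and 2.38 CPM in wild type and 31.3, 18.0 and 13.1 CPM in MZznf598, a log2 fold change of 2.90 (SE 0.41, adjusted p = 0.00145), with all 3 mutant libraries above. It was 1 of the 9 genes chosen for reaching 5 CPM in MZznf598 and not in wild type. That choice favours genes higher in MZznf598, so its direction and adjusted p are not independent of it. The gene si:dkey-217g21.2, excluded by 4 counts in 1 wild-type library at 1 hpf, had 22.9, 21 and 9.8 CPM in wild type and 37.1, 33.5 and 41.4 CPM in MZznf598 (adjusted p = 0.0164). The next by level, si:ch211-239d6.2, si:ch73-141c7.1, zgc:110286 and si:dkeyp-44b5.5, had means of 20.2, 30.8, 25.6 and 17.4 CPM in wild type at 6 hpf and 30.8, 26.2, 24.3 and 18.4 CPM in MZznf598, and none of these 4 was called.

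Genes with other symbols that met the same limits in wild type are given for comparison. There were 337 of them, 333 were called higher at 6 than at 1 hpf in MZznf598, and 8 were called up and 13 down between genotypes at 6 hpf, with a median log2 fold change of -0.10. The clone-named genes thus had 8.7% called in either direction and the others 6.23%, where 3.51% of all genes were called, and no test of the difference was made. The floor that the rule set under wild type at 6 hpf acts on both lists and not on all genes. Among genes that met the limits with a znf symbol, most of which encode C2H2-ZF proteins, 7 of 13 were called up, with a median of 1.05. These 13 are part of the 337, so 7 of the 8 called up there were znf genes. That list was chosen with earlier results of these libraries known and is given as a description.

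The calls at 6 hpf were also counted for members with and without a RefSeq entry, and the shares of all genes given above (11.3% and 10.9% at an unadjusted p below 0.05, 3.8% and 3.22% by DESeq2) apply to these counts. Of the 54 that RefSeq lists as protein-coding, 0 were called up by edgeR and 3 down, with a median log2 fold change of -0.20. At an unadjusted p below 0.05, 0 of them were higher and 11 lower, and DESeq2 called 0 up and 5 down. Of the 34 without a match, 4 were called up and 1 down, with a median of 0.13. At an unadjusted p below 0.05, 11 of these were higher and 6 lower, and DESeq2 called 8 up and 2 down. The 4 noncoding members were not called by edgeR or DESeq2 in either direction, and 0 passed an unadjusted p below 0.05. These are counts over genes that share libraries, and the difference between the groups of members was not tested. A missing match does not make a member noncoding. Of those called up, the study's annotation gives si:dkey-238d18.15 as protein-coding and C2H2-ZF domains to si:dkeyp-53e4.1 and si:dkey-22h13.2.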

How the data were processed

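Total RNA of whole-embryo pools was depleted of ribosomal RNA by the authors and made into stranded single-end libraries. According to the methods, reads were aligned to GRCz11 with STAR (2.7.8a in the submitters' processing notes), kept if they had 1 location and no more than 1 mismatch, and counted per Ensembl gene with featureCounts. Near-identical copies lose reads under this rule. The annotation release and the strand setting are not given in the sources used here. The deposited values are raw counts per gene, 1 table per library, with no molecular identifiers. Symbols were taken from a table that named 23608 of the 25432 identifiers.

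The counts were tested with edgeR 4.0.16 under R 4.3.3. The filter asked for over 1 CPM in 3 or more libraries, which 15829 genes passed, all 92 members among them, and 9603 did not. Library sizes were scaled by TMM (trimmed mean of M values), and a robust quasi-likelihood fit estimated the 4 group means together (8 residual degrees of freedom). Tests were 2-sided, and the SE is the size of the log2 fold change over the root of its F statistic. Printed CPM values use library totals, the scale of the rule. The procedure was tested on simulated data with known changes. DESeq2 1.42.0, RLE size factors, no filter, the compared libraries alone, a replicate block, other rule limits, an adjusted p below 0.05 and leaving out each library were tried as alternatives. After seeing the data, limma 3.58.1 on voom weights was added, without a block and with a random replicate block within genotype (consensus correlation 0.141). The planned test of the interaction of genotype and stage is not reported, because it uses the wild-type values that chose the members.

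Same-numbered libraries of a genotype deviated together at both stages (correlations of 0.133 to 0.209 across genes in 6 pairs), so the numbers pair stages within a genotype. Between genotypes at a stage the correlations were -0.0923 to 0.0706, and the numbers do not pair genotypes.

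The members, the lists and the tests were chosen with earlier results of these data known. Named genes are the 10 members with the highest wild-type CPM at 6 hpf, those called between genotypes at 6 hpf, 3 on either side of the 5 CPM limit, members not called higher at 6 than 1 hpf in MZznf598, up to 6 that meet the rule in MZznf598 alone, members over 3 counts in every MZznf598 library at 1 hpf, and znf598. Members of shared clones, and genes said to be, were named after their values were seen. Lists by protein sequence or chromosome were not analysed here.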

Additional observations from a re-analysis of the deposited data

Results flagged for a closer look

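The genotypes of si:dkeyp-67a8.4 stood in opposite order at the 2 stages. At 1 hpf it had 1.19, 0.831 and 2.43 CPM in the 3 MZznf598 libraries and 0 counts in wild type, while at 6 hpf all 3 MZznf598 libraries lay below wild type, with a log2 fold change of -0.88 that was not called. The difference between the stages was not tested, since the rule that chose the members used the wild-type libraries of both stages and favours this order.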

How the results depend on the processing

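Of the 92 members, 91 were called higher at 6 than at 1 hpf in MZznf598 under RLE size factors, DESeq2, no filter, either replicate block, limma with and without the block within genotype, an adjusted p below 0.05 and each of the 12 fits without 1 library, and 90 with the 6 compared libraries alone. A rule of 0 counts in each wild-type 1 hpf library chose 34 members, of which 33 were called, and one of at least 10 CPM chose 53, of which 52 were called. Between genotypes at 6 hpf, 4 members were called up and 4 down. DESeq2 called 8 and 7, an adjusted p below 0.05 gave 7 and 7, the 0-count rule gave 1 and 2 and the 10 CPM rule 2 and 3. The 5 CPM limit on all 6 libraries gave 9 and 4 and moved the median log2 fold change from -0.119 to 0.0065. That limit lets in genes through their MZznf598 level alone, which favours calls up and a higher median. Without 1 library the counts ran from 2 to 6 up and from 1 to 6 down. A replicate block of equal numbers across all 4 groups gave 4 and 4. The pairing found, of stages within a genotype, cannot enter the genotype contrast as a fixed block, so it was fitted as a random block in limma, after seeing the data. That gave 7 and 6, and limma without the block also gave 7 and 6. The cause of these shifts was not tested. The shares of all genes called by limma, or without 1 library, are not given here. CPM on the TMM scale gave 104 members, and leaving out a wild-type library gave 86 to 99. Counts under 3 per library limit what can be read at 1 hpf. The share of members with a C2H2-ZF match in the protein was not run, since no protein sequences were used here.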
